A study of Drosophila melanogaster with 12 samples.

Results

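The methylation guide snoRNAs of Drosophila melanogaster were followed through ribosomal RNA depletion. They were taken as the genes whose symbol starts with snoRNA:Me, which gave 103 of the 17813 genes in the deposited table. The symbol names the target RNA and the base and position of the site. By that name, 32 guides belonged to the 18S rRNA, 67 to the 28S rRNA and 4 to another RNA (5.8S rRNA, U2 snRNA and, for 2 guides, U6 snRNA). The 103 guides stood for 79 distinct sites, since 40 of them were copies with the same name and another last letter.

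Methylation guides are box C/D snoRNAs. Each pairs with a stretch of its target RNA and positions the methyltransferase fibrillarin, which sits in a small ribonucleoprotein with Nop56, Nop58 (nop5 in Drosophila) and a 15.5K-type protein (hoip), so that the ribose of 1 chosen nucleotide is methylated. In flies, as in other animals, most of these guides are cut out of introns of host genes, many of which encode ribosomal proteins or are noncoding genes whose exons have no known function (Uhg genes). The second large snoRNA family, box H/ACA, guides pseudouridylation and has its own set of proteins, with the pseudouridine synthase Nop60B at its center.

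RNA came from wild-type Oregon-R flies raised at 25°C, from 3 pools of 40 wandering third-instar larvae. Before depletion the RNA was treated with DNase and purified with a clean-up kit. Input was total RNA that was not depleted. Depleted RNA was total RNA denatured for 5 min at 70°C with 15 biotinylated antisense probes against 18S and 28S rRNA and cleared on streptavidin beads for 10 min at 50°C (Ribo-Pop), followed by a bead-based cleanup, and synthetic spike-in RNAs (SIRVs) were added to the RNA before depletion. Input and depleted RNA each gave random-primed libraries (NEBNext Ultra II Directional) and poly(A)-primed libraries (QuantSeq, primed from the poly(A) tail), which made 4 conditions of 3 libraries. Larvae were pooled whole, so fewer cells of a type and less RNA per cell cannot be told apart.

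Libraries held from 14264502 to 16889144 estimated counts when random-primed and from 3503819 to 6329164 when poly(A)-primed. In the random-primed libraries, rRNA took from 96.2% to 97.3% of the counts in input and from 23.7% to 33.4% after depletion. All 11 larval markers checked (salivary glue, larval serum and cuticle genes) reached 10 counts in every library, and the 6 markers of other stages together made up at most 4.48 counts per 1000000 non-rRNA counts. Levels are given as estimated counts, or as CPM, the counts per 1000000 counts of a library with rRNA included. Intervals and limits for single libraries cover counting error only.

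Of the 15 probes used for depletion, 9 held no named position in their target window and 6 held at least 1. In 4 windows the rRNA base facing the probe was the one in the guide's name, which held for 12 guides of 8 sites. These probes are shown because their windows contain the bases that the guides are named for. They are written 5′ to 3′ as designed, antisense to the rRNA, with the base facing each named site in capitals.
18S probe 1, rRNA positions 3 to 37: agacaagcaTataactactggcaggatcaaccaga
18S probe 2, rRNA positions 408 to 441: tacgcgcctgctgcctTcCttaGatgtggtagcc
18S probe 4, rRNA positions 1353 to 1379: gaactaagaacggccatgcacCaccac
28S probe 8, rRNA positions 760 to 788: GggtcccgaaggtaTccTgaatctttcgc

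Probe 1 faces the site of Me18S-A28a, probe 2 those of Me18S-C419, Me18S-G423 and Me18S-A425, probe 4 that of the 3 Me18S-G1358 copies, and probe 8 those of Me28S-A771, of both Me28S-A774 copies and of both Me28S-C788 copies. For 8 further guides with a named position inside a window, the base there was another than the one in the name, so the numbering of those sites was not settled. The windows covered 7.87% of the 1995 bases of 18S rRNA and 7.93% of the 3970 bases of 28S rRNA. They held the matching sites of 21.9% of the 18S guides and of 7.46% of the 28S guides. These 2 percents count each copy as a guide, so 1 site can enter more than once. Of the 12 guides with a matching site, 3 had any count in any library, against 53 of all 103 guides. The highest value was 6.0, for Me18S-A425. Whether guides with a site under a probe differ was not tested.

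The first question was how far these libraries detected the guides. Of the 103 guides, 50 were at 0 in all 12 libraries, and 1084 of the 1236 values (87.7%) were 0. No guide reached 10 counts in every library of any condition, whereas of all non-rRNA genes 26.1% did so in random-primed input, 65% in random-primed depleted, 50.3% in poly(A)-primed input and 48.7% in poly(A)-primed depleted RNA. A single value among the 1236 exceeded 10, at 13.8 counts. With a count of 0, a level of up to 3 counts is still allowed, which is from 0.178 to 0.210 CPM in the random-primed and from 0.474 to 0.856 CPM in the poly(A)-primed libraries. Absence of a guide from the larvae is therefore not shown by these data.

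Summed over all 103 guides, the random-primed input libraries held 20.9, 11.8 and 17.2 counts and the random-primed depleted libraries 23.2, 26.9 and 22.1. The poly(A)-primed input libraries held 38.5, 44.4 and 30.4 counts and the poly(A)-primed depleted libraries 14.5, 17.7 and 13.1. Both pairs of groups were separate, with more guide counts after depletion under random priming and fewer under poly(A) priming. As a share of all counts the guides made up 1.0 ± 0.26 CPM of random-primed input and 1.51 ± 0.13 CPM of random-primed depleted RNA (mean ± SD, n = 3), a ratio of 1.51. Under poly(A) priming the share went from 7.27 ± 0.23 to 3.37 ± 0.37 CPM, a ratio of 0.464.

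**Figure D1:**
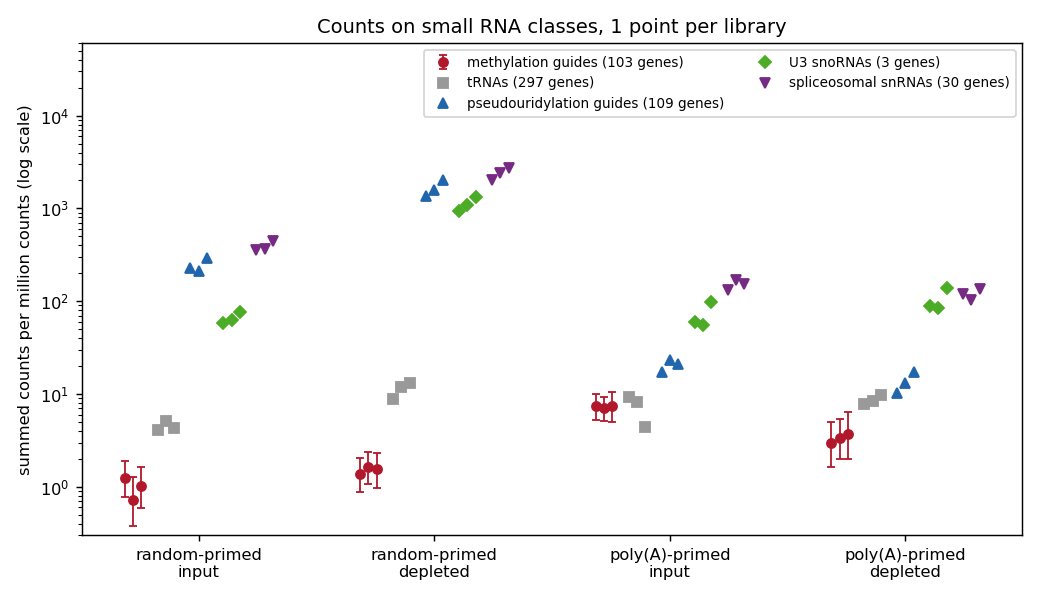
Summed counts of 5 classes of small RNA in each of the 12 libraries, in CPM on a log axis; points are libraries and the bars on the methylation guides are 95% Poisson intervals, which cover counting error only. The methylation guides lie between 0.730 and 7.44 CPM in every library, while the pseudouridylation guides average 1644 CPM in the random-primed depleted libraries.

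The pseudouridylation guides, 109 genes named in the same way for their sites, gave 25845 ± 2932 counts per random-primed depleted library against 24.0 ± 2.5 for the methylation guides, 1075 times as many. The gap was 242-fold in random-primed input, 2.86-fold in poly(A)-primed input and 3.94-fold in poly(A)-primed depleted RNA. Per gene and per kilobase of annotated length, the gap was 494-fold in random-primed depleted RNA and 108-fold in random-primed input. The spliceosomal snRNAs, taken as the 30 genes whose symbol starts with snRNA:U, exceeded the methylation guides 1575-fold in random-primed depleted RNA. tRNAs, which are about as short as the methylation guides, held 7.40 times the guide counts over 297 genes, but a single tRNA gene averaged 138 of their 178 counts per random-primed depleted library.

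The families differed in annotated length, with overlapping ranges. The 77 guides with a gene model were from 46 to 149 nt long with a median of 79 nt (quartiles 73 and 87 nt), the pseudouridylation guides from 124 to 268 nt with a median of 140 nt, and tRNAs had a median of 73 nt. Among all snoRNA genes under 100 nt, 0 of 103 averaged 10 counts in the random-primed depleted libraries. The numbers were 1 of 14 at 100 to 129 nt, 45 of 101 at 130 to 149 nt and 28 of 39 at 150 nt and above. At 100 to 129 nt, the 6 methylation guides had a summed mean of 3.42 counts and the 4 pseudouridylation guides of 0. The 103 short genes were 68 methylation guides and 35 others, with no pseudouridylation guide among them. Length and family could therefore not be told apart under 100 nt. The methylation guides of 80 to 89 nt, 21 genes, carried a summed mean of 13.6 counts per random-primed depleted library, and the 33 of 70 to 79 nt carried 2.50. The 35 other snoRNA genes under 100 nt are named for neither kind of guide. By symbol several of them are box C/D (Or-CD) and some box H/ACA (Or-ACA), so they are not a comparison outside C/D. They held 16.0 ± 3.2 counts in random-primed input, 13.7 ± 1.5 in random-primed depleted and 432 ± 237 in poly(A)-primed input libraries. In poly(A)-primed input 1 gene averaged 423 of these counts.

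Low counts also occurred among the pseudouridylation guides. Of all 109, 30 were at 0 in every random-primed depleted library. The 87 of up to 149 nt, the length of the longest methylation guide, had a median of 9.23 counts, and 46 of them averaged more than the highest methylation guide. Only 3 methylation guides were as long as the shortest pseudouridylation guide, too few to compare the families at equal length. These were Me18S-G1506 at 148 nt and Me28S-C2789 at 149 nt, both at 0 in all 12 libraries, and Me28S-A2629 at 141 nt, with 0.630 counts in 1 of the 12. Across the 77 guides, length and mean count in random-primed depleted RNA had a Spearman rho of 0.36, given as a description, since most of the guides shared the value 0. Base composition and structure of the guides were not examined here. The part of length in the low counts was not tested.

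**Figure D2:**
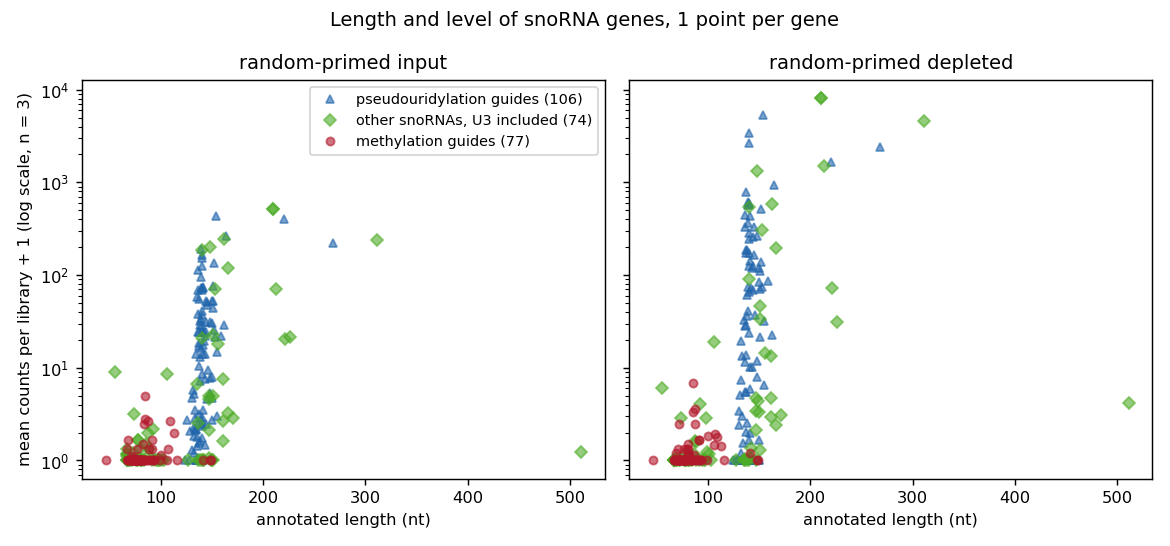
Annotated length in nt against mean counts per library plus 1 (log axis, n = 3 libraries) for each snoRNA gene with a gene model, in random-primed input and random-primed depleted RNA. The 77 methylation guides cluster under 150 nt and below 10 counts, while the 106 pseudouridylation guides start at 124 nt and reach 5380 counts after depletion.

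The few counts were spread over many guides. In random-primed depleted RNA 32 guides had a value above 0 in any library (10 of the 18S, 21 of the 28S and 1 of the other guides), and 2 had one in every library. In random-primed input 21 guides had a value above 0, in poly(A)-primed input 24 and in poly(A)-primed depleted RNA 19. The 5 highest guides held 57.0% of the guide counts in random-primed depleted RNA. Over the 12 libraries, 53.1% of the 18S guides and 52.2% of the 28S guides had at least 1 value above 0.

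Me18S-C1096, which guides 18S rRNA and lies in an intron of RpL3 (85 nt, 3R, positions 11222405 to 11222489, BDGP6.54), had the highest mean in random-primed depleted RNA. It held 5.0, 1.49 and 5.49 counts in random-primed input and 5.46, 9.46 and 2.44 after depletion. The groups overlapped, at 0.240 ± 0.128 and 0.355 ± 0.202 CPM (SD, n = 3). It was at 1 count in each poly(A)-primed input library and at 1, 0 and 0 after depletion.

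Next came 2 guides of noncoding host genes. Me28S-A3407a, in an intron of Uhg1 (87 nt, 2R, positions 17699702 to 17699788), held 1, 2 and 2 counts in random-primed input and 3.87, 3.95 and 0 after depletion. Me28S-G2703c, in an intron of Uhg5 (85 nt, 2R, positions 14624007 to 14624091), held 1, 1.45 and 3 counts in random-primed input and 2.78, 1.89 and 2.34 after depletion. Both sets of groups overlapped. Me28S-G2703c and Me18S-C1096 were the only guides above 0 in all 6 random-primed libraries.

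The other 7 of the 10 highest guides in random-primed depleted RNA had means between 0.667 and 1.49 counts, and each was at 0 in at least 1 of the 3 libraries. Me18S-C1831, in an intron of RpL27A (72 nt, 2L, positions 4457603 to 4457674), held 0, 2.08 and 2.38 counts. Me28S-G2703b and Me28S-G2703a of Uhg5 held 3.46, 1 and 0 and 0.0229, 0 and 2.02 counts. Me28S-A2589c and Me28S-A2589b, in introns of the chromatin remodeler gene dom, held 0, 0.826 and 2 and 0, 0 and 2.36 counts. Me18S-C1366 of Uhg5 held 0, 1.23 and 1.23. MeU6-A47, which by its name guides U6 snRNA, held 0, 0 and 2 counts and lies in an intron of Hlc (Ddx56 in the annotation, an RNA helicase gene). The 3.46 counts of Me28S-G2703b were the only value among these 7 guides above the 3 counts that a 0 still allows.

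Poly(A)-primed libraries had another leading guide. Me28S-G3253, in an intron of RpS9 (88 nt, 3L, positions 9510720 to 9510807), held 13.8, 9.30 and 5.77 counts in poly(A)-primed input and 1, 2 and 4.77 after depletion, and it was at 0 in all 6 random-primed libraries. Its poly(A)-primed groups did not overlap, at 1.83 ± 0.68 and 0.650 ± 0.621 CPM. In the separate alignment-based count of the same 6 libraries it held 15, 16 and 8 reads in input and 1, 2 and 6 after depletion, so the order of the groups was the same.

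Me18S-A1576, in an intron of Uhg2 (113 nt, 2L, positions 9894795 to 9894907), held 5, 7 and 3 counts in poly(A)-primed input and 1, 4.31 and 1 after depletion, with overlapping groups. Me18S-A1806, 78 nt on 3L with no host on its strand, held 3 counts in each poly(A)-primed input library and 1, 2 and 0 after depletion. It is not among the highest guides and is named, after its values were seen, because it was 1 of 3 guides that reached 3 counts in all poly(A)-primed input libraries. Me28S-C3227a of Uhg5 held 3, 0 and 1 counts after depletion and 0, 1 and 0 before.

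The 2 counting methods differed for Me18S-A425. This guide, whose named rRNA site lies under probe 2, lies in RpL3 as well (84 nt, 3R, positions 11222841 to 11222924), within an exon of some transcripts and an intron of others. Estimated counts gave it 6.0, 4.5 and 0 in poly(A)-primed input and 1, 0 and 1.75 after depletion. The alignment-based count gave it 0 reads in all 6 of these libraries. Over all guides, the alignment-based count found 43, 65 and 42 reads in poly(A)-primed input and 31, 27 and 18 after depletion, again separate groups.

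**Figure D3:**
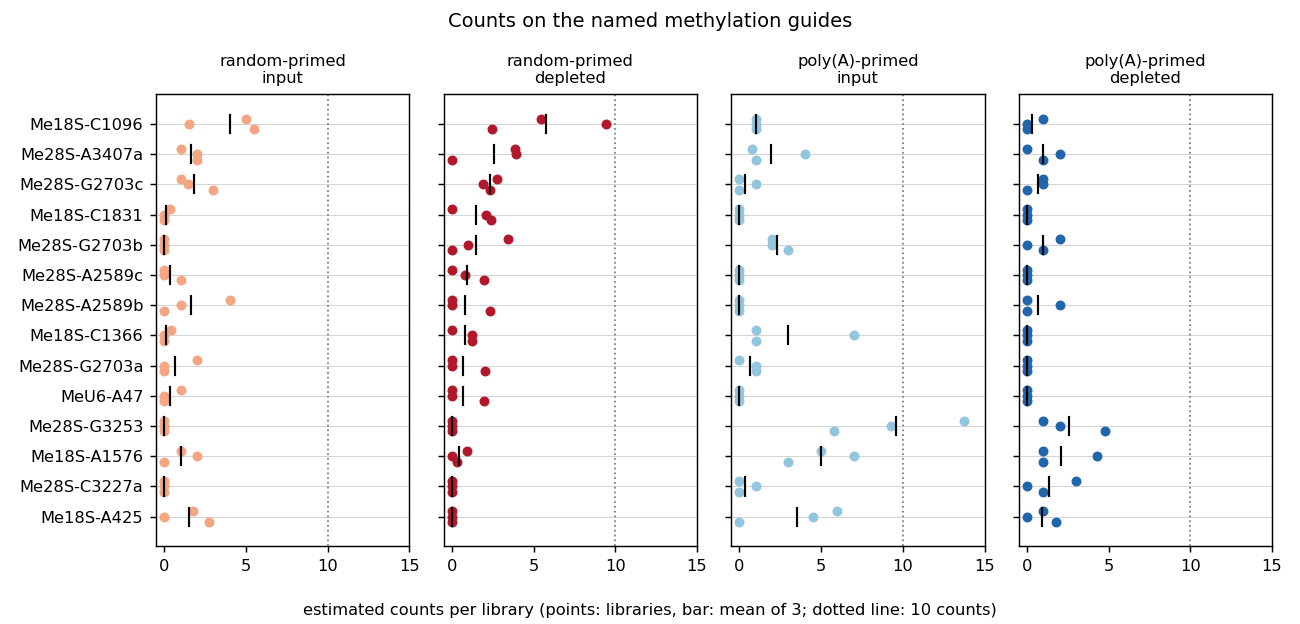
Estimated counts of the 14 guides named for their level in each condition; points are the 3 libraries, the bar is their mean and the dotted line marks 10 counts. Only Me28S-G3253 in 1 poly(A)-primed input library passes the line, at 13.8 counts, and the guides that lead in random-primed libraries are not those that lead in poly(A)-primed libraries.

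Of the 152 values above 0, 76 (50.0%) were not whole numbers (tolerance 0.001), as the counting divides a read among the sequences it matches. Such values also occurred in guides with 1 copy, such as Me18S-C1096. Counts of single guides, with or without copies, are therefore uncertain. The sequences of copies were not compared here. The 7 groups of 3 or more copies were also summed, which removes a division among copies but not one with other sequences. The 3 Me28S-G2703 copies held 3, 1.45 and 3 counts in random-primed input and 6.26, 2.89 and 4.36 after depletion. The 3 Me28S-A2589 copies held 4, 1 and 1 and then 0, 0.826 and 5.75. Both of these overlapped between input and depleted RNA. The 4 Me28S-G1083 copies held at most 1 count in any random-primed library and up to 3.97 in poly(A)-primed input. The 3 Me28S-C2645 copies were at 0 throughout. The remaining 3 groups, Me18S-G1358, Me18S-U1356 and Me28S-A2634, had at most 1.03 counts per library.

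Guides for targets other than 18S and 28S rRNA were the least covered. Me5.8S-G74, MeU2-A31 and MeU6-C68 were at 0 in all 12 libraries, and MeU6-A47 had 1 count in 1 random-primed input library and 2 in 1 depleted library. The 18S guides as a sum held 11.4, 4.49 and 9.23 counts in random-primed input and 7.43, 15.1 and 7.91 after depletion. The 28S guides held 8.49, 7.30 and 7.96 and then 15.7, 11.7 and 12.2 counts, which did not overlap. The ratio of 18S to 28S guide counts was 1.04 ± 0.38 in input and 0.805 ± 0.431 after depletion and overlapped between the groups. No difference between the 2 target classes was detectable at this depth.

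The effect of depletion was then set against the spike-ins, which were added before the probes and so report what was kept of an RNA relative to them. Per 1000 spike-in counts, the random-primed libraries held 1.14, 0.663 and 0.920 guide counts in input and 0.0492, 0.0648 and 0.0479 after depletion. The depleted libraries thus held 5.94% of the input level, 16.8 times less, with a 95% interval of 4.03% to 8.58% from counting error. The 3 same-numbered pairs gave from 4.31% to 9.79%. All 3 depleted libraries lay below all 3 input libraries. At 3 libraries a group the smallest two-sided p of an exact permutation test is 0.1, so neither this ratio nor the others on summed counts could pass 0.05. The 18S guides stood at 5.07% (2.78% to 8.66%) and the 28S guides at 6.78% (3.99% to 11.8%), with overlapping intervals.

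Direction depended on the scale. The share of all counts on guides was higher after random-primed depletion, while their level went from 31.4 ± 10.6 to 2.09 ± 0.27 counts per 1000000 non-rRNA counts, a log2 ratio of -3.91.

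Other short RNAs were also lower per spike-in count. tRNAs, with most of their counts on 1 gene, stood at 9.74% of input (8.25% to 11.3%), spliceosomal snRNAs at 24.3%, pseudouridylation guides at 26.3%, the U3 snoRNAs of 210 to 213 nt at 66.6% and protein-coding genes at 89.3%. By length, all snoRNA, scaRNA and snRNA genes of under 80 nt stood at 2.88% (1.69% to 4.62%), those of 80 to 99 nt at 6.17%, of 100 to 129 nt at 5.36%, of 130 to 149 nt at 25.5%, of 150 to 199 nt at 22.2% and of 200 nt and above at 80.1%. The methylation guides supplied most genes of the 2 shortest classes, but not most of the input counts under 80 nt. Per random-primed input library, guides of up to 69 nt summed to 1.0 counts and other snoRNAs to 8.77, of which snoRNA:185 averaged 8.0. At 70 to 79 nt the sums were 0.512 and 3.70. After depletion they were 0.201 and 5.03, then 2.50 and 2.06. Of the 560 counts summed over the input libraries at 100 to 129 nt, snoRNAs held 13.6 per library, so most were on scaRNAs or snRNAs. Relative to the pseudouridylation guides of the same library, the methylation guides were 4.43 times lower after depletion than in input, and relative to the spliceosomal snRNAs 4.14 times lower, again with separate groups. Which step of the handling the loss came from was not tested.

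Under poly(A) priming the guides stood at 43.0% of their input level per spike-in count (29.3% to 60.4%), and the same-numbered pairs gave from 30.7% to 52.9%. The pseudouridylation guides stood at 61.4%, the spliceosomal snRNAs at 72.0% and tRNAs at 107% (79.6% to 135%). The primer of these libraries needs a run of adenines, and which molecules gave the guide counts was not tested.

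**Figure D4:**
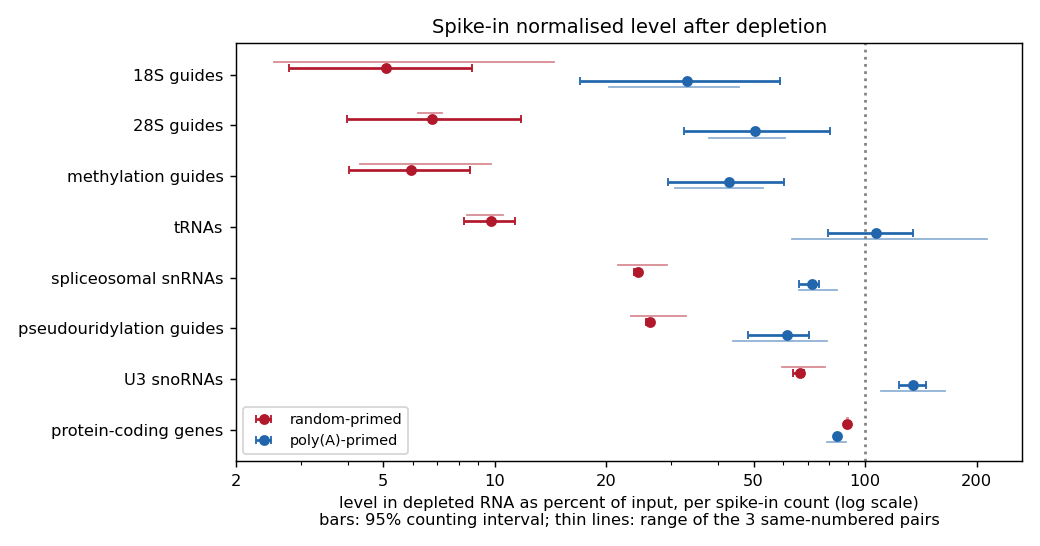
Level in depleted RNA as a percent of input, per spike-in count, on a log axis, for random-primed (red) and poly(A)-primed (blue) libraries; thick bars are 95% intervals from counting error and thin lines the range of the 3 same-numbered pairs. Under random priming the methylation guides sit at 5.94% and protein-coding genes at 89.3%.

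Tests per guide had little to work on. No guide passed the default filter on low counts in any of the 3 comparisons, so edgeR tested 0 of 103 guides and called 0, against 2.34% of the 10893 genes called in the random-primed comparison of depleted with input RNA, 4.57% of 9823 in the poly(A)-primed comparison and 68.2% of 11467 between random-primed and poly(A)-primed depleted RNA. The guides with the largest fitted changes could therefore not be named from these fits.

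With every gene of at least 1 count kept, edgeR tested 31 guides in the random-primed comparison. It called 2 lower and 0 higher, where 1.77% and 0.123% of all genes were. An unadjusted p under 0.05 was found for 13 guides, but the share of all genes under it was not counted. DESeq2 gave 18 of its 31 guides an adjusted p and called 6 lower, where 2.85% of the 15483 genes with a p-value were. The edgeR fit with spike-in library sizes tested 1 guide, Me18S-C1096, and called it lower, where 1.45% were. With no filter and spike-in library sizes, an alternative chosen after seeing the data, edgeR called the same 2 lower, where 1.37% were. The 2 calls without a filter were Me18S-C1096, with a log2 fold change of -3.86 (SE 0.79, adjusted p = 0.00606, edgeR), and Me18S-A425, which had 1.75, 0 and 2.74 counts in input and 0 in all 3 depleted libraries (adjusted p = 0.0142, edgeR). Both lie in RpL3. These fold changes are per non-rRNA count, and as a share of all counts Me18S-C1096 was not lower. Without random-primed input library 1 or 3, Me18S-C1096 alone passed the default filter and was not called (adjusted p = 0.258 and 0.158, edgeR). Without input library 2 it was called, at 0.0143. Random-primed input libraries held from 446728 to 614219 non-rRNA counts and depleted ones from 9499565 to 12893034, and spike-in counts differed the same way. Filters on scaled counts thus keep a guide through its input counts. A lower call was therefore favored in advance in DESeq2, with spike-in library sizes and without an input library. Those calls are no support for a loss.

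In the poly(A)-primed comparison edgeR without a filter called 0 of 31 guides, where 3.86% of all genes were called. It gave 2 guides an unadjusted p under 0.05, with the share of all genes again not counted. DESeq2 left the adjusted p of all 31 undefined and gave none an unadjusted p under 0.05. Me28S-G3253 had a log2 fold change of -1.64 (SE 0.65, adjusted p = 0.184, edgeR) there. Between random-primed and poly(A)-primed depleted RNA, edgeR without a filter called 5 of 36 guides lower under random priming, where 23.5% of all genes were. These were Me28S-G3253, Me18S-A1576, Me28S-C3227a, Me18S-A425 and Me18S-A1806, and 4 of them were at 0 in all 3 random-primed depleted libraries. DESeq2 called the first 3 of these, where 23.2% of all genes were called lower, and edgeR with no filter and spike-in library sizes called Me28S-G3253 alone, where 5.23% were.

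Most host genes had more counts than their guides, on counts that were not scaled for length. Of the 77 annotated guides, 74 lay inside a gene on their own strand, 62 of them in introns only and 12 over an exon of at least some transcripts. The 35 host genes had a median of 2370 spliced counts per random-primed depleted library, and 33 of them exceeded the mean of the highest guide. For scale, 65% of all non-rRNA genes reached 10 counts in every library of this condition. That rule is stricter and uses spliced plus intronic counts, so it is not like for like. The 13 ribosomal protein hosts ranged from 3176 to 14251 spliced counts, and the 21 guides in them summed to 7.60 counts. RpL3 had 11047, 13143 and 6497 spliced counts, against 5.46, 9.46 and 2.44 for its guide Me18S-C1096, and its other guides Me18S-A425 and Me28S-G2017 were at 0 there.

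Hosts of the Uhg kind were lower. The 7 Uhg genes had from 0 to 172 spliced counts, and their 30 guides summed to 10.6 counts per library. Of all guides, 8 lie inside 2 hosts and count toward both. Uhg5, with 10 guides, had 93, 65 and 75 spliced counts, and its guides averaged 6.66. The translation factor gene eEF1alpha1 had 101392 spliced counts, and its guide Me28S-A1322 was at 0 in random-primed depleted RNA. The hosts also held 7313 counts on introns in total. Reads from an unspliced host can match a guide inside it, and the counting does not tell these apart from the mature guide.

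**Figure D5:**
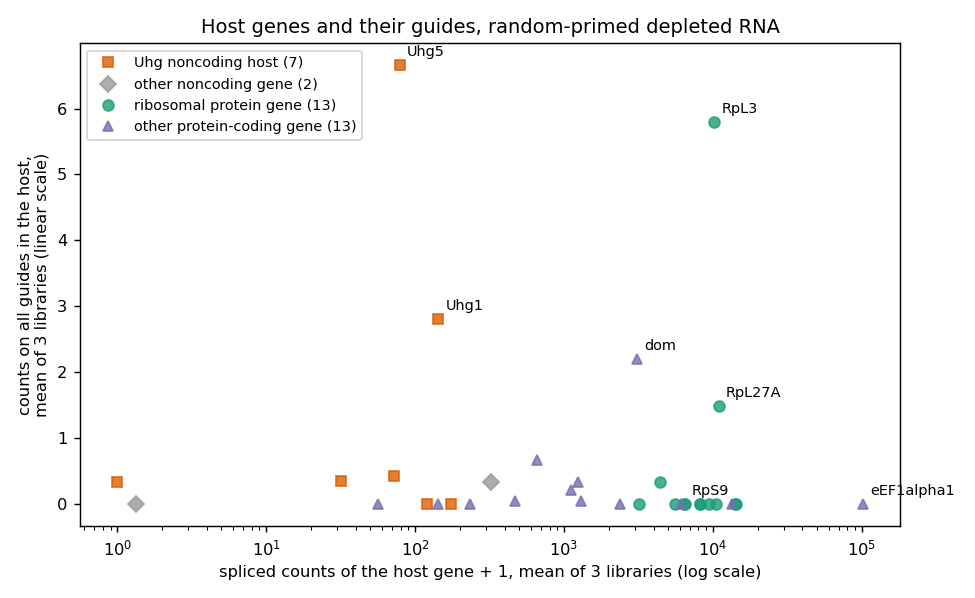
Spliced counts of each of the 35 host genes plus 1 (log axis) against the counts on all guides inside it (linear axis), as means of the 3 random-primed depleted libraries; symbols mark the kind of host. Hosts span from 0 to 101392 counts while the guides of any host stay under 7 counts, with Uhg5 and RpL3 at the top.

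Hosts were then compared between input and depleted RNA. In the random-primed comparison 2 of 33 tested hosts fell and 0 rose, where 2.28% and 0.0643% of all genes did. These were RpL23A, at a log2 fold change of -1.25 (SE 0.14, adjusted p = 0.000281, edgeR), and RpL28, at -0.94 (SE 0.14, adjusted p = 0.00206, edgeR), which lost its call with spike-in library sizes (adjusted p = 0.0768, edgeR). With the replicate number as a block, 6 hosts rose and 5 fell, where 2.44% and 5.43% of all genes did. Under poly(A) priming 4 of 34 hosts fell and 1 rose, where 3.62% and 0.947% of all genes did. With the replicate number as a block 8 fell and 5 rose, where 11.3% and 7.81% of all genes did, although that pairing was not settled. With spike-in library sizes 2 hosts fell and 0 rose there, where 1.37% and 0.0724% of all genes did. The host that rose was Uhg4, at 0.81 (adjusted p = 0.0378, edgeR), and it lost its call without any 1 of 5 of the 6 libraries (adjusted p from 0.0823 to 0.180, edgeR), the exception being input library 3. Among the 4 that fell was RpL3, the host of Me18S-C1096, at -1.35 (SE 0.18, adjusted p = 0.00091, edgeR). Between random-primed and poly(A)-primed depleted RNA 7 of 34 hosts were higher and 21 lower, where 35.1% and 33% of all genes were, and with spike-in library sizes 13 were higher and 10 lower, where 63.6% and 6.91% were. RpS9, the host of Me28S-G3253, had in the poly(A)-primed comparison a log2 fold change of 0.47 (SE 0.24, adjusted p = 0.295, edgeR), while the counts of the guide were lower in each depleted library than in each input library.

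The proteins that work with the guides were measured in every library. Fib, the methyltransferase, was at 25.0 ± 4.1 counts per 1000000 non-rRNA counts in random-primed input and at 23 ± 0.93 after depletion. The means of the other core genes Nop56, nop5 and hoip ranged from 19.7 to 51.8 on this scale in the 2 random-primed conditions and reached 69.3 in poly(A)-primed depleted RNA. Of 12 genes for core, assembly and H/ACA proteins, 1 fell in the random-primed comparison and 0 rose, where 2.28% and 0.0643% of all genes did, and edgeR called 0 of 12 in the poly(A)-primed comparison, where 4.57% of all genes were called. There 4 of the 12 had an unadjusted p under 0.05, a threshold for which the share of all genes was not counted. DESeq2 called 1, where 2.35% of all genes were called lower. The gene that fell was Nopp140, a nucleolar chaperone of snoRNPs, at a log2 fold change of -1.04 (SE 0.22, adjusted p = 0.0273, edgeR). It lost its call without depleted library 1 (adjusted p = 0.127), input library 1 (0.278) or input library 2 (0.0819), and with spike-in library sizes (0.199), all by edgeR. With the replicate number as a block, 2 of the 12 rose and 3 fell under poly(A) priming, where 7.81% and 11.3% of all genes did. Between random-primed and poly(A)-primed depleted RNA 8 of the 12 were lower and 0 higher, where 33% and 35.1% of all genes were, but with spike-in library sizes 3 were lower and 4 higher, where 6.91% and 63.6% were.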

How the data were processed

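The members and gene lists were chosen with earlier results of these data known. The authors trimmed adapters, assigned single-end reads with Kallisto (stranded) to spliced, intronic and spike-in sequences of Ensembl BDGP6.28, and deposited the estimated counts summed per gene for 12 libraries, not normalized. HTSeq counts of uniquely aligned reads (STAR) were deposited for the 6 poly(A)-primed libraries, whose 5 summary lines (from 7.81% to 9.88% of the reads) were left out. A deposited table of the authors' own DESeq2 comparison (fold changes and p-values) was not used.

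Estimated counts were rounded and tested with edgeR 4.0.16 (quasi-likelihood, robust, TMM, default low-count filter, R 4.3.3), with Benjamini-Hochberg adjustment over all non-rRNA, non-spike-in genes and a threshold of 0.05. DESeq2 1.42.0, other filters, spike-in library sizes, spliced counts only, a replicate block and leaving out each library were alternatives. Standard errors of fold changes were the fold change divided by the root of the F statistic. The edgeR fit with the default filter was also run on simulated counts. The changed genes there had expected counts above those of any guide. That run therefore says nothing on the guide calls without a filter. Summed counts were compared as ratios, with same-numbered pairs beside them (scipy 1.17.1). Intervals are 95% exact Poisson or Clopper-Pearson intervals; the floor for a count of 0 is 3 counts. Lengths, hosts and positions came from Ensembl release 115 (BDGP6.54, a later annotation release of BDGP6), which held 77 of the 103 guides. The other 26 are used by name.

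The named guides were the 10 with the highest mean CPM in random-primed depleted and the 5 in poly(A)-primed depleted RNA, those with a site under a probe, those for other targets and groups of 3 or more copies. A rule for the 5 largest fitted changes in each direction named none, since no guide was fitted. The libraries of a condition came from different larval pools. Each RNA sample gave 1 input and 1 depleted portion, and equal replicate numbers were not stated to mark the same RNA. Deviations of same-numbered random-primed input and depleted libraries from their group means correlated at 0.50 to 0.85 over 1816 genes with a mean of at least 50 counts. For the poly(A)-primed libraries the correlations were 0.18 to 0.77, and 0.04 at the lowest with a minimum of 10 counts, so that pairing was not settled.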

Additional observations from a re-analysis of the deposited data

Results flagged for a closer look

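The share of all counts on the methylation guides had a log2 ratio of depleted to input RNA of 0.59 under random priming and of -1.11 under poly(A) priming. All 3 depleted libraries lay above all 3 input libraries in the first case and below them in the second. The difference between the primings was not tested, and rRNA took from 96.2% to 97.3% of the random-primed input counts but from 5.09% to 13.8% of the poly(A)-primed input counts.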

How the results depend on the processing

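The share of counts on guides was higher after random-primed depletion (0.59 on the log2 scale) under 8 of 9 alternatives and reversed as a share of non-rRNA counts (-3.91). Without 1 library it ranged from 0.41 to 0.79. The spike-in normalised level (-4.07 on the log2 scale) kept its direction under all 11 alternatives and ranged from -4.26 to -3.87 without 1 library. With the replicate block, as the mean of the same-numbered pairs, it was -4.05. Ratios to pseudouridylation guides, snRNAs and protein-coding genes kept their direction under all 8 alternatives each. So did the ratio of 18S to 28S guides, which ranged from -0.89 to -0.10 without 1 library although its groups overlapped. For the other quantities the groups were separate, so neither leaving out 1 library nor the block could reverse the direction. Guides had no intronic counts, so spliced counts left the share and the spike-in normalised level unchanged. These alternatives say nothing on stability. Guides detected were 0 with a minimum of 10 or 50 and 3 with a minimum of 3 counts.

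Guides called in the random-primed comparison were 0, against 6 with DESeq2, 2 with no filter, 1 with spike-in library sizes and 2 with both of the last (chosen after seeing the data), and from 0 to 1 without 1 library. Between random-primed and poly(A)-primed depleted RNA they were 0, against 3 with DESeq2, 5 with no filter and 1 with no filter and spike-in library sizes. In the poly(A)-primed comparison they were 0 under the 12 alternatives that gave a value, and DESeq2 gave no guide an adjusted p there. Most of these zeros come with no guide passing the filter and say nothing on stability. In the random-primed comparison, calls with DESeq2, with spike-in library sizes or without an input library were favored by filters that keep a guide through its input counts. With the replicate block 0 guides were tested and called in each comparison. Depth limits all of these, with 1 of 1236 values at 10 counts or more.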
